A study of Mus musculus with 10 samples.

Results

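Cytosolic ribosomal proteins are the protein part of the ribosomes that translate nuclear-encoded messages. Of 32531 gene symbols counted in each library, 84 carried the name of a cytosolic ribosomal protein: symbols of the form Rpl or Rps with a number, plus the stalk proteins Rplp0, Rplp1 and Rplp2 and the laminin receptor Rpsa. Symbols that carry the pseudogene mark -ps were left out. The rule used names alone, though it was set with earlier results of these data known. Rpl10a was kept apart, because it is the protein that carries the purification tag, which left 33 genes of the small subunit and 50 of the large subunit. All 83 had an entry in the RefSeq gene table, where Rps4l is listed as a transcribed pseudogene.

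The ribosome joins a small subunit, which reads the message, to a large subunit, which forms peptide bonds and holds the exit tunnel. Ribosomal protein genes are transcribed in nearly every cell, and many of their messages begin with a run of pyrimidines (C or T) that ties their translation to mTOR signalling. In neurons part of these messages also sits in dendrites and axons. Most of the genes have intronless copies elsewhere in the genome, called processed pseudogenes, and many hold small nucleolar RNAs (snoRNAs) in their introns.

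The RNA came from whole striatum of adult Chat-EGFP/Rpl10a mice, line DW167, whose cholinergic neurons make Rpl10a fused to green fluorescent protein. Tagged polysomes were immunopurified with antibodies against that protein and their RNA was sequenced, in 3 libraries each from cocaine self-administration, yoked control and saline self-administration mice. One library of total RNA from a saline self-administration sample, without immunopurification, served as the input. All 4 groups carry the transgene, and the labels state neither whether a library is 1 animal or a pool, nor what the yoked mice received, so p-values measure the spread between these libraries, which may be partly technical.

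Gene counts ran from 24526765 to 75220922 in the immunopurified libraries, and the input held 40912230. Levels are given in CPM, a gene's counts scaled to the library's gene counts. The 10 cholinergic markers summed to 4300 to 5620 CPM in the 9 immunopurified libraries and to 103 CPM in the input, while 12 spiny neuron markers summed to 1110 to 1950 CPM and to 7720 CPM. Between 36.3% and 57.1% of the reads of an immunopurified library, and 35.4% of the input's, had no unique alignment and were given to no gene. RefSeq names 316 pseudogenes for 63 of the 83 ribosomal protein genes, and reads shared with such a copy would fall in that class, so a level here is that of uniquely placed reads, not corrected for length, and a difference of levels between genes is not read as one of message abundance. Strand use in counting is not given in the sources used here. The labels place cocaine and yoked libraries on sequencing lane 4, saline on lane 3 and the input on lane 5, and against saline or the input the effects of lane and of group cannot be told apart.

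The bases around the annotated start are shown for 8 genes on which the results below turn: the tagged Rpl10a, 2 genes with high ratios to input on over 100 input counts (Rpl41, Rps27l), the gene with the lowest ratio (Rpl31), the gene with most placed counts (Rpl4), a paralog pair (Rpl22 and Rpl22l1), and Rpl27a, which stood out in 1 library. Each runs 5′ to 3′ from 40 bases before the start through the first 20 transcribed bases, on the gene's own strand, from RefSeq on GRCm38.p6. The start is that of the promoter table, which for Rps27l lies 1462 bases and for Rpl22 1290 bases downstream of the gene's first annotated base and for the other 6 coincides with it. Capitals mark the longest unbroken run of C and T that touches the 10 bases on either side of the start.
Rpl10a, chr17:28328431-28328490, plus strand: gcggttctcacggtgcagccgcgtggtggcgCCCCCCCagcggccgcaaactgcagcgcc
Rpl41, chr10:128549149-128549208, minus strand: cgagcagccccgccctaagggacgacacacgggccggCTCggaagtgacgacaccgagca
Rps27l, chr9:66946046-66946105, plus strand: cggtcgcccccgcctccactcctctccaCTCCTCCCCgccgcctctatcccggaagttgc
Rpl31, chr1:39367811-39367870, plus strand: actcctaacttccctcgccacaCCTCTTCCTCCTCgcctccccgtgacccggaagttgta
Rpl4, chr9:64173347-64173406, plus strand: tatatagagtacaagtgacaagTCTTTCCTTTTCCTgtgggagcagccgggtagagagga
Rpl22, chr4:152325686-152325745, plus strand: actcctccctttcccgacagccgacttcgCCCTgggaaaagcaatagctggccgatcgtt
Rpl22l1, chr3:28805468-28805527, plus strand: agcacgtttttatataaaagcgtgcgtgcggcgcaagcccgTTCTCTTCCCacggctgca
Rpl27a, chr7:109519155-109519214, plus strand: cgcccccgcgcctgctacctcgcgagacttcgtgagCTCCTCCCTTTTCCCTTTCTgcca
The run is 20 bases in Rpl27a, 14 in Rpl4 and 13 in Rpl31, and 3 bases in Rpl41. It crosses the annotated start in Rpl27a and lies after it in Rpl22l1. In the other genes shown, Rpl4 and Rpl31 included, it lies wholly before the start, outside the annotated message. The counts below take runs on either side of the start, so they are not counts of messages that begin with a run. Among the 62 ribosomal protein genes with a promoter in the RefSeq table, 27 (43.5%) had a run of at least 8 bases there, against 14% of all 21263 promoters. In the window of 250 bases before to 50 after the start, on both strands, the letters CCGGAAG of the GABPA core occurred in 25 (40.3%, against 11.6% of all promoters). The YY1 core AAGATGG occurred in 9 (14.5%, against 6.24%), the SP1 box GGGCGG in 37 (59.7%, against 46.2%), TATAAA in 6 (9.68%, against 12.6%) and the NRF1 core GCGCATG in 7 (11.3%, against 4.8%). The searched motifs may overlap, and a match describes letters, not a site in use. Genes with the run near the start had a median log2 ratio to input of 1.25 (27 genes) and those without it of 1.10 (31 genes).

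The ratio of immunopurified RNA to input asks which messages were on the ribosomes of cholinergic neurons more, or less, than in the striatum as a whole. Ribosomal protein messages were higher in the purified RNA nearly throughout: their median log2 ratio over the saline libraries was 1.11 ± 0.29 (SD of the library medians, n = 3), which is 2.16-fold, against −0.20 for the 15888 genes measured. Of 79 ribosomal protein genes measured, 69 lay above the input in all 3 saline libraries and 1, Rpl31, lay below it in all 3. Of all 15888 genes measured, 5684 lay above the input in all 3 and 7136 lay below it in all 3. At least 2-fold higher in all 3 saline libraries were 23 of 79 (29.1%), against 12.2% of all genes. None was at least 2-fold lower in all 3, against 23.1% of all genes. There is no test, since the input is 1 library, and a larger share of a message per cell cannot be told apart from a larger share of cells carrying it. The purified RNA was bound to polysomes while the input was total RNA, so differences in ribosome loading cannot be told apart either. Reads on no annotated feature made up 15.25% in the input and 7.04% to 11.25% in the purified libraries, and their part was not tested. The count depended on saline library 2: without it 56 were at least 2-fold higher, against 14.5% of all genes. With the cocaine libraries over the same input 40 of 79 were (11.7% of all genes), and with the yoked libraries 42 of 78 (12.1%). At least 2-fold lower was none in either, against 22.3% of all genes with the cocaine libraries and 21.9% with the yoked libraries.

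The summed level of the 83 genes shows the same difference per library. It was 3863, 3719 and 4798 CPM in the cocaine libraries, 4122, 4391 and 4532 CPM in the yoked libraries, 3906, 3734 and 4488 CPM in the saline libraries and 1788 CPM in the input. Every purified library stood above the input, and the 3 treatment groups overlapped. The group means were 4126 ± 586 CPM for cocaine, 4348 ± 208 for yoked and 4042 ± 395 for saline (SD, n = 3 each).

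**Figure D1:**
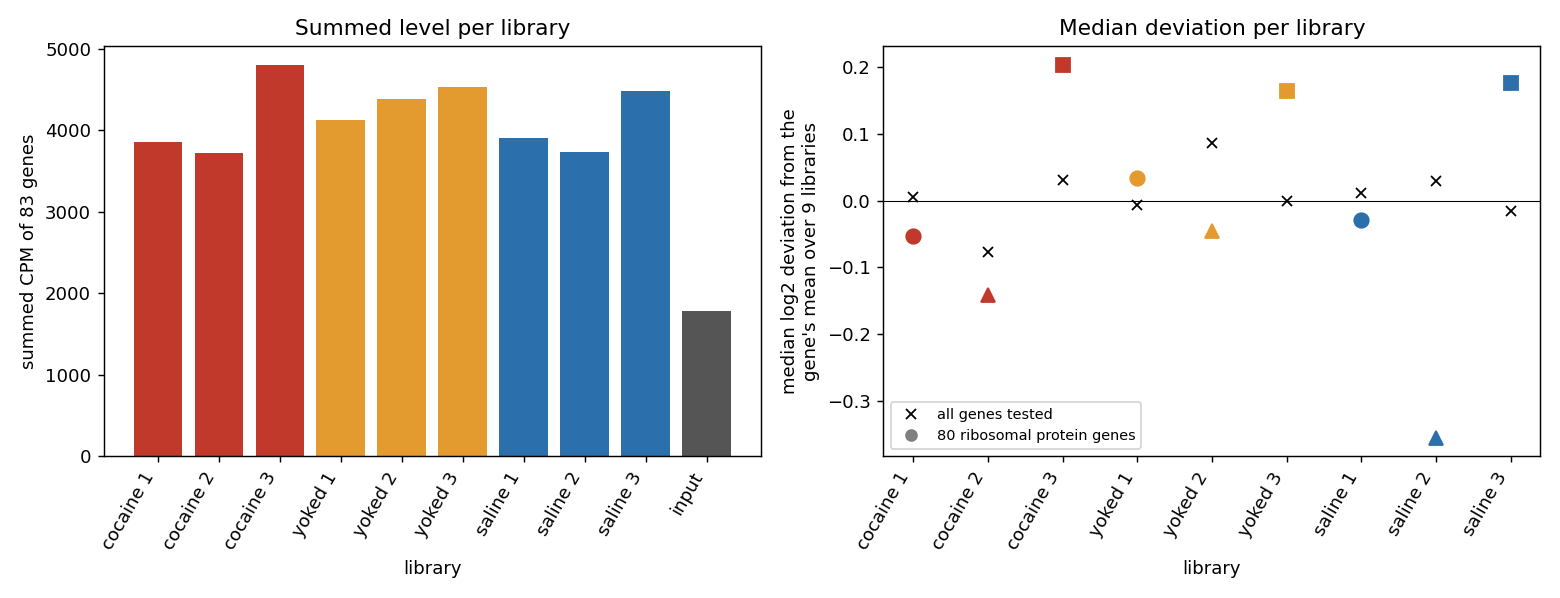
Left, the summed CPM of 83 cytosolic ribosomal protein genes in each library as bars. Right, the median log2 deviation from each gene's own mean over the 9 immunopurified libraries, for 80 ribosomal protein genes (coloured) and for all genes tested (crosses). The input reaches 1788 CPM, below every purified library, and saline library 2 has the lowest median deviation, −0.354.

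Rpl10a, the tagged protein of the large subunit (chromosome 17, 28328471 to 28331033, GRCm38.p6), did not stand high. It measured 12.3, 5.54 and 11.6 CPM in the cocaine libraries, 6.93, 7.41 and 12.8 CPM in the yoked libraries, 6.25, 2.23 and 9.43 CPM in the saline libraries and 4.11 CPM in the input (168 counts, 95% Poisson interval 3.51 to 4.78 CPM, counting error only). Saline library 2 alone lay under the input, and all 3 treatment groups overlapped. Its log2 ratio to input was 0.31 ± 1.07 in saline libraries (SD, n = 3), with means of 1.17 in cocaine and 1.08 in yoked libraries. Without saline library 2 the saline mean was 0.90. Its coding sequence is also in the transgene and it has 4 named pseudogenes in RefSeq, so reads of the native gene and of the tag cannot be told apart.

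Rplp0, Rplp1 and Rplp2 form the stalk of the large subunit that recruits elongation factors. Rplp1 had 109, 75.9 and 139 CPM in saline libraries, against 55.6 CPM in the input, a log2 ratio of 0.91 ± 0.44. Rplp2 had 95.6, 69.9 and 109 CPM, against 38.6 CPM, a log2 ratio of 1.22 ± 0.33. Rplp0 had 29.3, 25.8 and 27.7 CPM, against 13.7 CPM, a log2 ratio of 1.01 ± 0.09 (SD, n = 3 for each). All 3 stalk genes lay above the input in every saline library, and Rplp0 varied least of them.

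The small subunit had a median log2 ratio of 1.10, with 8 of 33 genes (24.2%) at least 2-fold higher in all 3 saline libraries, against 12.2% of all genes. Where the input or the mean saline library held 100 counts or more, Rps27, a zinc-binding protein, was highest at 2.35 ± 0.28, which rests on 28 input counts. Rps27l, its p53-inducible paralog, had 21.5, 20 and 22.3 CPM in saline libraries, against 5.04 CPM in the input, 4.22-fold. The saline libraries of Rps27l lay close together and far above the input. Rps28, one of the smallest ribosomal proteins, reached a log2 ratio of 1.85 ± 0.60. At the low end stood Rps6, the substrate of S6 kinase downstream of mTOR, with 6.13, 7.70 and 6.94 CPM in saline libraries, against 4.89 CPM in the input (log2 ratio 0.50 ± 0.17). Rpsa, which joins the small subunit and also occurs as a laminin receptor, had a log2 ratio of 0.57 ± 0.37 and Rps7 one of 0.74 ± 0.79. Rps7 had 14.6, 5.89 and 15.7 CPM in saline libraries, against 6.62 CPM in the input, so that saline library 2 alone fell below the input.

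The large subunit had a median log2 ratio of 1.17, with 15 of 46 genes (32.6%) at least 2-fold higher in all 3 saline libraries, against 12.2% of all genes. Rpl41, whose product is the shortest ribosomal protein, had 143, 154 and 166 CPM in saline libraries, against 34.8 CPM in the input, 4.43-fold (log2 ratio 2.15 ± 0.11). Its libraries were close to each other and far from the input. Rpl36 reached 1.92 ± 0.15. Rpl27 had the highest mean log2 ratio of all, 2.47, but on 15 input counts and fewer than 100 on the purified side. Rpl4, which lines the exit tunnel, had the highest mean CPM of uniquely placed reads of the 83 genes over the 9 purified libraries (591). In saline library 2, Rps3 was higher, at 620 CPM. Rpl4 had 526, 520 and 612 CPM in saline libraries, against 376 CPM in the input. Its log2 ratio of 0.55 ± 0.13 was among the lowest, although every library stood above the input. Rpl31, which sits at the rim of the exit tunnel, had 7.65, 6.62 and 9.79 CPM in saline libraries, against 11 CPM in the input (log2 ratio −0.48 ± 0.29). Rpl31 overlaps the gene Tbc1d8 in RefSeq and has 24 named pseudogenes, and what part either has in its ratio was not tested.

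**Figure D2:**
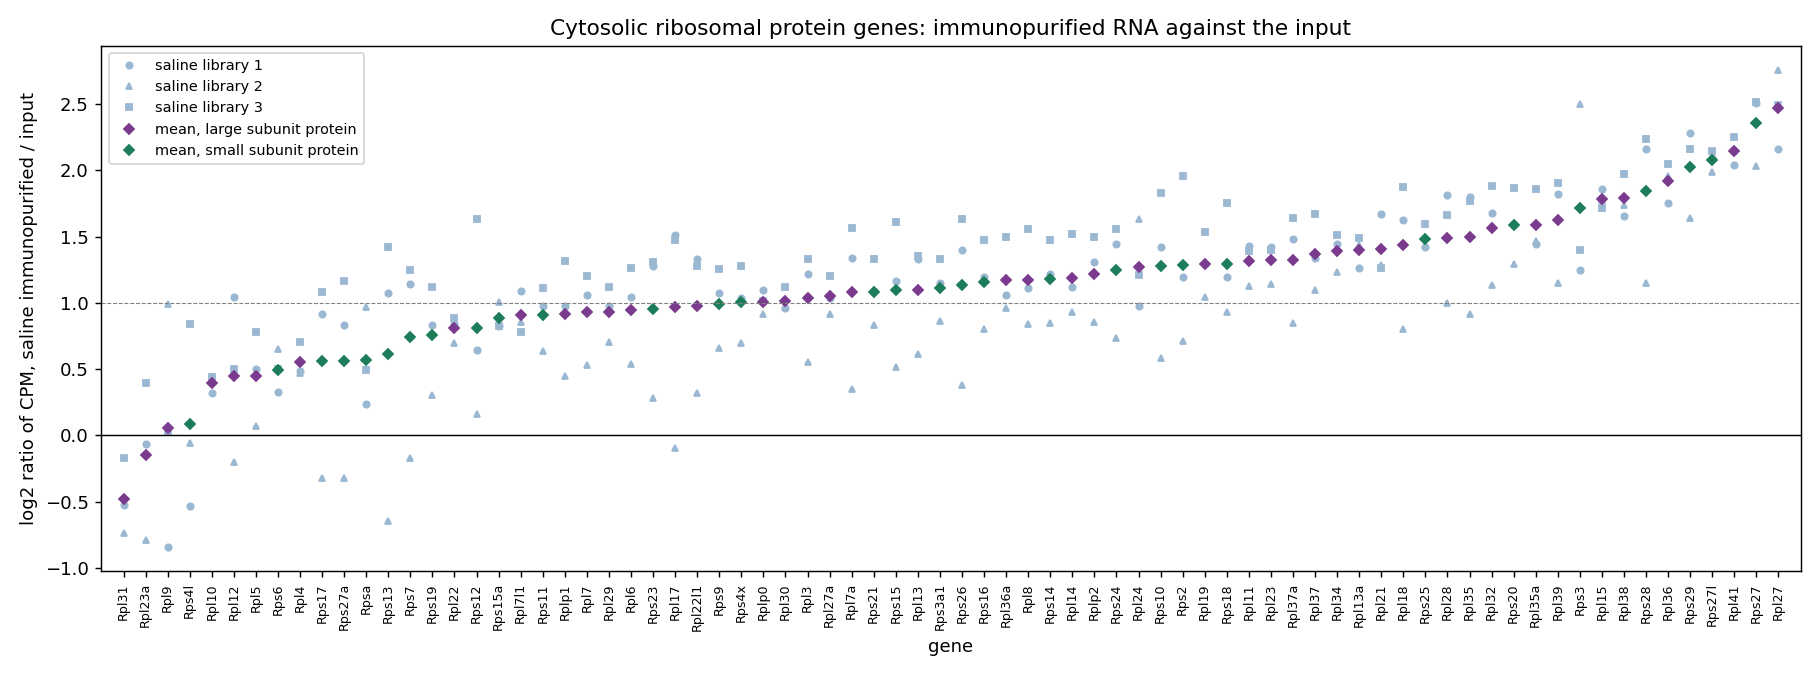
Log2 ratio of CPM in saline immunopurified libraries to the input, for each measured gene, 3 left out, in order of its mean, with pale symbols for the 3 libraries, diamonds for their mean (coloured by subunit) and a dashed line at a 2-fold ratio. The genes run from −0.478 for Rpl31 to 2.47 for Rpl27, and the quartiles lie at 0.911 and 1.40.

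Several ribosomal proteins have paralogs that can take their place. Rpl22 and Rpl22l1, whose products bind RNA outside the ribosome too, had log2 ratios of 0.81 ± 0.10 and 0.98 ± 0.57. Rpl22 had 70.1, 63.3 and 72.0 CPM in saline libraries, against 39 CPM in the input. Rpl22l1 had 27.4, 13.6 and 26.4 CPM, against 10.9 CPM. Both genes were above the input in all 3 libraries, and Rpl22l1 was the more variable. Rpl7 and Rpl7l1 had log2 ratios of 0.93 ± 0.35 and 0.91 ± 0.16. The other paralogs, known from testis or striated muscle, were scarcely counted. Rpl10l had 3 counts in the 10 libraries together, and the X-linked Rpl10 had 25 to 90 per library. Rpl39l had 2 counts, both in saline library 3, while the X-linked Rpl39 had 50.5, 31.7 and 53.5 CPM in saline libraries, against 14.3 CPM in the input. Rpl3l, the muscle form of Rpl3, had 10 input counts and at most 14 counts in a purified library. Rps4x, X-linked, had a log2 ratio of 1.0 ± 0.29, while the transcribed pseudogene Rps4l, which lies within Tmtc1, had 0.08 ± 0.70. None of the 84 genes was at 0 in every library.

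By features of the genes, the median log2 ratio was 1.07 for the 30 genes that hold an annotated snoRNA and 1.17 for the 49 measured genes that do not. It was 1.09 for 62 genes with a named pseudogene and 1.18 for 17 without, and 1.11 for 58 genes with at least 100 input counts and 1.16 for 21 with fewer.

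Other genes of translation were set beside them, with the same saline libraries and input. Of 75 mitochondrial ribosomal protein genes, 30 were at least 2-fold higher in all 3 libraries, and their median log2 ratio was 1.04 ± 0.08 (SD of library medians, n = 3). Proteasome subunits, another large housekeeping complex, had a median of 0.83 ± 0.11, with 8 of 37 (21.6%) at least 2-fold higher. The median was 0.60 ± 0.07 for 30 elongation and initiation factors, 0.35 ± 0.06 for 33 ribosome assembly genes and 0.30 ± 0.32 for 19 kinases and repressors of translation control. At least 2-fold higher were 2 factors (6.67%), 2 assembly genes (6.06%) and 1 control gene (5.26%), against the same 12.2% of all genes. Among the factors Eef1g, a subunit of elongation factor 1, had a log2 ratio of 1.53 ± 0.09, while Pabpc1, the poly(A)-binding protein, had −1.36 ± 0.32. Among assembly genes, Ncl (nucleolin) had −0.76 ± 0.14. Of the ribosomal proteins that go by other names, 3 had log2 ratios of 2.23 ± 0.27 (Fau), 1.56 ± 0.29 (Rpl36al) and 0.74 ± 0.16 (Gnb2l1, also called Rack1; SD, n = 3 for each).

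Levels moved together between single libraries of a group. The median deviation of ribosomal protein genes from their own means over the 9 purified libraries was, on the log2 scale, −0.05, −0.14 and 0.20 in cocaine libraries 1 to 3. It was 0.03, −0.04 and 0.16 in yoked libraries and −0.03, −0.35 and 0.17 in saline libraries, while for all genes it stayed between −0.08 and 0.09. Library 3 of each group thus had the highest median, and 12 of 80 genes were above their mean in saline library 2. Of 58 genes with at least 5 CPM, library 3 was the highest of its group for 44 in cocaine, 34 in yoked and 47 in saline, and for 23 in all 3 groups. These counts, and that of genes above their mean in saline library 2, were not made over all genes. Whether they exceed the share among all genes is thus not known. Libraries that share a number also share an adapter index in the labels, and the part of this index was not tested. The share of reads without a unique alignment was 47.2%, 56.2% and 54.3% in cocaine libraries 1 to 3, 50.8%, 36.3% and 57.1% in yoked libraries and 46.5%, 36.4% and 50.9% in saline libraries. It was thus low in saline library 2, but lowest in yoked library 2, and high in cocaine library 2, where the median deviation was below 0. Its part in these levels was not tested.

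**Figure D3:**
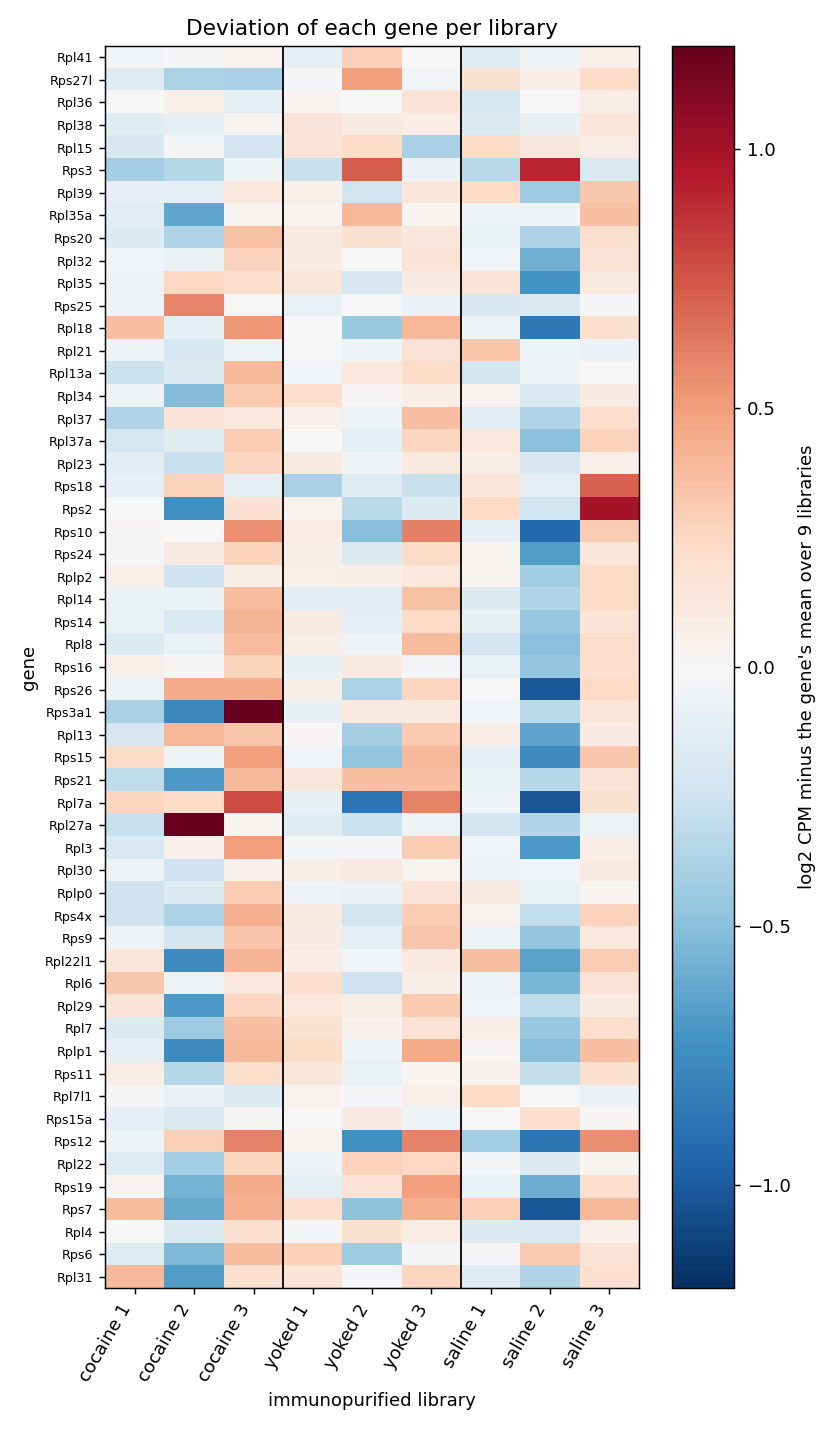
Heat map of each gene's log2 CPM after subtraction of its average in the 9 immunopurified libraries, with a row per ribosomal protein gene of at least 5 CPM, 3 left out, and a column per library, cocaine, yoked and saline from left to right. Saline library 2 is low for many rows and library 3 of each group is high, while Rpl27a stands out in cocaine library 2.

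Over the 9 purified libraries the SD of log2 CPM had a median of 0.28 over 58 ribosomal protein genes with at least 5 CPM and of 0.29 over all 10247 such genes. The steadiest were Rpl36 (SD 0.11, 4.37 to 5.68 CPM) and Rps15a (0.11). The most variable were Rpl7a (0.61, 5.92 to 20.9 CPM) and Rps12 (0.57, 2.74 to 7.79 CPM). Rpl10a, at 0.77, exceeded all 58.

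Some genes peaked in 1 or 2 libraries, and the following were chosen after their values were seen. Rpl27a had 40.4, 126 and 49.9 CPM in cocaine libraries, 44.4, 41.1 and 46.9 CPM in yoked libraries and 41.9, 38.5 and 47.0 CPM in saline libraries, so cocaine library 2 was 2.53 times the next highest. Rps25 was highest in the same library, at 50.9 CPM, 1.5 times the next. Rps3a1 reached 69.3 CPM in cocaine library 3, 2.13 times the next. Rps3, which also acts in DNA repair, had 247, 259 and 316 CPM in cocaine libraries, 273, 543 and 312 CPM in yoked libraries and 261, 620 and 290 CPM in saline libraries. Library 2 was thus high in yoked and saline but not in cocaine. Rps3 holds the snoRNAs Snord15a and Snord15b, whose part in these counts was not tested.

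**Figure D4:**
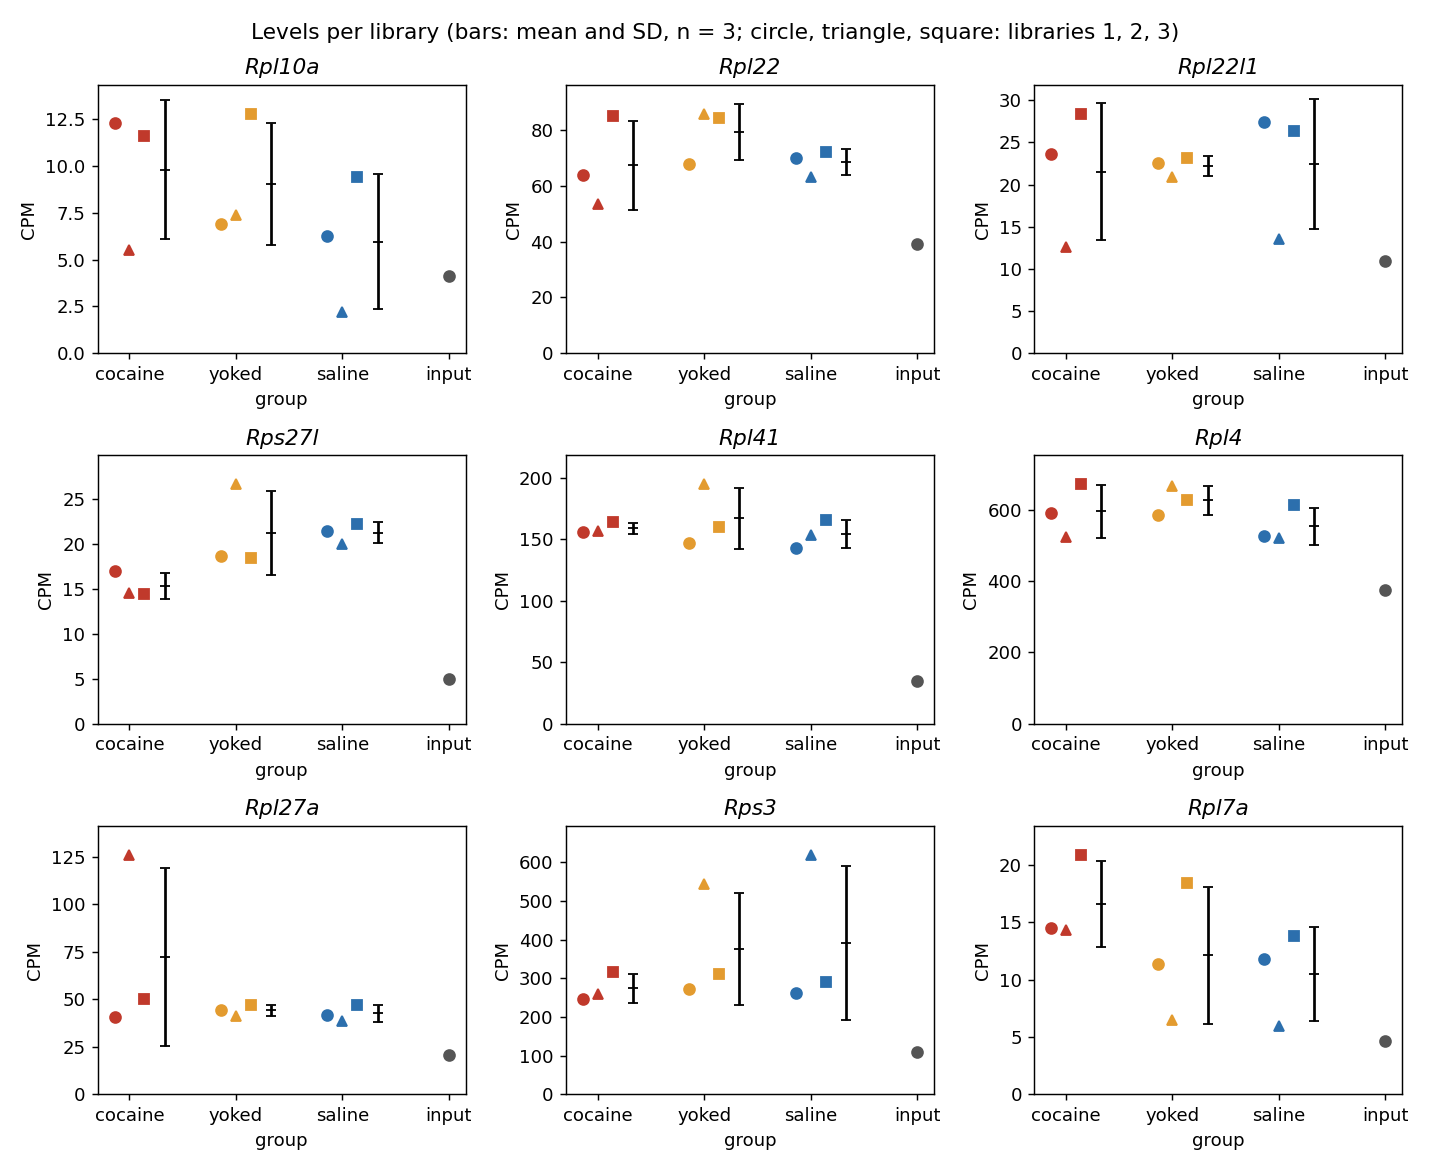
CPM of single genes in each library by group (cocaine, yoked, saline, input), with a symbol per library (circle 1, triangle 2, square 3) and black bars for mean and SD (n = 3). The 126 CPM of Rpl27a in cocaine library 2 and the 620 CPM of Rps3 in saline library 2 stand apart from the rest of their groups.

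Cocaine self-administration against saline self-administration asked for changes with drug taking. No ribosomal protein gene passed the test, with 0 of 80 under an adjusted p of 0.05, against 0% of all 14989 genes (edgeR quasi-likelihood test, Benjamini-Hochberg, smallest adjusted p = 0.85). DESeq2 and limma voom also called 0 genes. Before adjustment, 1 of 80 was higher and 0 were lower at p under 0.05, against 2.76% and 2.52% of all genes (5.28% in either direction). Groups did not overlap for 1 higher gene (Rpl7a) and 2 lower, against 4.88% and 5.40% of all genes. The median log2 fold change was 0.04 over the 80 genes, of which 48 lay above 0 and 32 below, and 0.00 over all genes. Without saline library 2 it was −0.05, with 34 above 0 and 46 below, and without cocaine library 3 −0.02, with 39 above and 41 below. The median half-width of the 95% intervals of these genes was 0.61 on the log2 scale, without adjustment for the number of genes tested. Smaller changes could mostly not be told from 0 with 3 libraries a group. Some larger ones were not called either, such as Rpl27a at 0.80, since a call needed an adjusted p under 0.05.

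The genes with the smallest p, none of which passed, included Rpl27a, Rps25 and Rpl7a above 0 and Rps27l and Rps2 below. Rpl27a had a log2 fold change of 0.80 ± 0.34 (SE; adjusted p = 0.85, edgeR), which became 0.09 without cocaine library 2, where the gene peaked. Rps25 had 0.36 ± 0.21, which became 0.10 without the same library. Rpl7a, part of the large subunit, had 14.5, 14.3 and 20.9 CPM in cocaine libraries, against 11.8, 5.92 and 13.8 CPM in saline libraries (log2 fold change 0.66 ± 0.39, and 0.37 without saline library 2). Rps27l had 17.0, 14.6 and 14.5 CPM in cocaine libraries, 18.7, 26.7 and 18.5 CPM in yoked libraries and 21.5, 20 and 22.3 CPM in saline libraries. Every cocaine library of Rps27l was below every library of both other groups, with log2 fold changes of −0.45 ± 0.22 against saline (adjusted p = 0.85, edgeR) and −0.43 ± 0.22 against yoked (−0.27 without yoked library 2). Rps2 had −0.57 ± 0.33 against saline, where saline library 3, at 31.0 CPM, was the highest of all libraries. Without that library the value was −0.14. The summed markers of other cells overlapped between groups: spiny neuron markers summed to 1180 to 1840 CPM in cocaine, 1350 to 1680 in yoked and 1110 to 1950 in saline libraries, and 8 oligodendrocyte markers summed to 315 to 555 CPM in cocaine, 323 to 493 in yoked and 229 to 506 in saline libraries. Single markers moved unevenly. In cocaine against saline 7 of 8 oligodendrocyte markers lay above 0 (median log2 fold change 0.42), and in yoked against saline 8 of 8 (0.50). In cocaine against yoked 5 of 5 cortical neuron markers did (0.93). Of 12 spiny neuron markers, 10 lay above 0 in cocaine against saline (0.09), 11 in yoked against saline (0.19) and 4 in cocaine against yoked (−0.05). Of 10 cholinergic markers, 8, 7 and 6 lay below 0 in the same 3 comparisons. Of all these markers 0 were called (edgeR). At an unadjusted p under 0.05, 2 of these oligodendrocyte markers were higher in cocaine against saline, 0 in yoked against saline, and 2 of the cortical markers were higher in cocaine against yoked. The shares of all genes higher in these 3 comparisons were 2.76%, 1.38% and 1.63%. The part of these markers' cells in the fold changes of ribosomal protein genes was not tested. Rpl10a had a log2 fold change of 0.70, with a 95% interval of −0.32 to 1.72, and 0.30 without saline library 2.

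Cocaine against yoked compared libraries that share a sequencing lane. Here too 0 of 80 ribosomal protein genes were called, against 0% of all genes (edgeR, smallest adjusted p = 0.9997; DESeq2 and voom also 0). At an unadjusted p under 0.05, 1 was higher and 1 lower, against 1.63% and 0.974% of all genes (2.61% in either direction). Groups did not overlap for 2 higher and 3 lower genes, against 3.42% and 3.37% of all genes. The median log2 fold change was −0.01, with 38 genes above 0 and 42 below, and 0.00 over all genes. It ran from −0.10 without cocaine library 3 to 0.04 without cocaine library 2. Rpl27a had 0.76 ± 0.34, which became 0.04 without cocaine library 2, and Rps25 had 0.31 ± 0.21, which became 0.03 without it. Rps18 had 14.2, 18.4 and 14.1 CPM in cocaine libraries, against 11.6, 13.7 and 12.6 CPM in yoked libraries (0.35 ± 0.27, and 0.18 without cocaine library 2). Below 0, Rps21 had −0.39 ± 0.23, which became −0.19 without cocaine library 2 and −0.72 without cocaine library 3. Rpl10a had 0.13, with a 95% interval of −0.89 to 1.15.

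Yoked against saline likewise gave 0 of 80 called, against 0% of all genes (edgeR, smallest adjusted p = 0.9993; DESeq2 and voom also 0). At an unadjusted p under 0.05, 0 were higher and 1 lower, against 1.38% and 0.801% of all genes (2.18% in either direction). Groups did not overlap for 1 higher and 1 lower gene, against 4.30% and 2.74% of all genes. The median log2 fold change was 0.10, with 60 genes above 0 and 20 below, against −0.01 over all genes. Without saline library 2, the low library described above, the median was −0.04, with 30 above 0 and 50 below. These fits took no account of the number that libraries share. With a term for that number (a replicate block) the median was 0.11, with 62 above 0 and 18 below, and 0 were called. All other values of this comparison come from fits without the block. Rps18 had 11.6, 13.7 and 12.6 CPM in yoked libraries, against 16.8, 14 and 24.8 CPM in saline libraries (log2 fold change −0.59 ± 0.27), which became −0.30 without saline library 3. Rps2 had −0.58 ± 0.33 and Rps28 −0.47 ± 0.41, which became −0.15 for Rps2 and −0.26 for Rps28 without the same library, and −0.75 for Rps28 without saline library 2. Above 0 stood Rpsa (0.50 ± 0.40), Rps21 (0.34 ± 0.23) and Rpl8 (0.27 ± 0.21), none past the test. Without saline library 2, Rps21 had 0.21 and Rpl8 0.11, and without yoked library 3 Rpl8 had 0.13. Rpl10a had 0.57, with a 95% interval of −0.45 to 1.59, and 0.17 without saline library 2. Cocaine and yoked were both set against the same saline libraries, so these fold changes are not independent of each other.

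**Figure D5:**
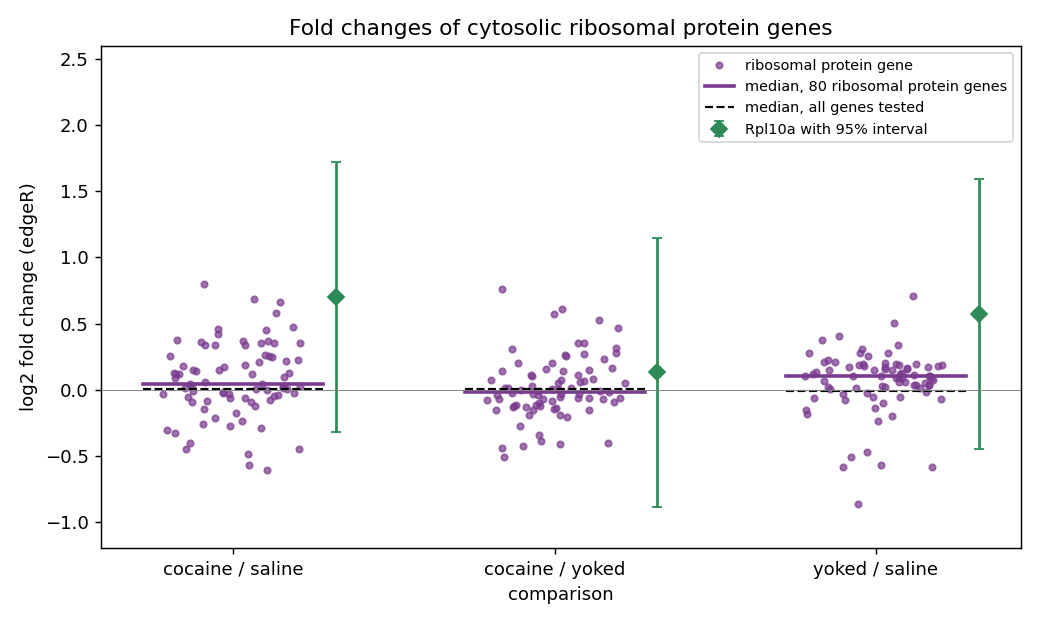
Log2 fold change (edgeR) of each tested ribosomal protein gene in cocaine over saline, cocaine over yoked and yoked over saline, with a dot per gene, solid lines for their medians, dashed lines for the median of all genes and diamonds for Rpl10a with its 95% interval. The medians are 0.044 for cocaine over saline, −0.014 for cocaine over yoked and 0.1 for yoked over saline, and no gene passed the test.

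The other translation genes and the proteasome gave 0 calls in all 3 comparisons too (edgeR; DESeq2 and voom called no gene either). At an unadjusted p under 0.05, cocaine against saline had 1 higher and 1 lower of 75 mitochondrial ribosomal protein genes, 2 lower of 37 proteasome subunits and 1 lower of 33 assembly genes, and 0 of 30 factors and of 19 control genes. Over all genes 2.76% were higher and 2.52% lower. Cocaine against yoked had 0 in these lists, and yoked against saline had 1, the assembly gene Rrp9, which was higher (log2 fold change 1.17 ± 0.39 SE, adjusted p = 0.9993, edgeR). Over all genes 1.63% were higher and 0.974% lower in cocaine against yoked, and 1.38% and 0.801% in yoked against saline. Among cytosolic factors the smallest p between cocaine and saline belonged to Eif4a2, the helicase of the cap-binding complex, with a log2 fold change of −0.42 ± 0.21, and to Eif3e at −0.33 ± 0.17. Among assembly genes Rpf2 had −0.43 ± 0.19 and Rrp1 0.43 ± 0.20. Among control genes Eif2ak1 had 0.32 ± 0.17 and Mtor, the kinase upstream of pyrimidine-run messages, 0.33 ± 0.18 (SE; adjusted p = 0.85 for each of these 6, edgeR). Of the proteasome subunits, Psma6 had −0.56 ± 0.22, and of the mitochondrial ribosomal proteins Mrpl50 had −0.40 ± 0.17, again at an adjusted p of 0.85 (edgeR).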

How the data were processed

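The authors deposited a table of raw, unnormalised counts for each library, with a row per gene symbol. Per the submitters' processing notes, reads were aligned to mm10 with STAR 2.0.0e and HTSeq was used; annotation, strand setting and read filters are not given in the sources used here. Rows of unassigned reads were kept out of library sizes and used as shares only. Gene coordinates, pseudogene names and promoters came from RefSeq tables on GRCm38.p6.

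CPM were computed on total gene counts. Ratios to input took each saline library's CPM over the input's, for genes with at least 20 counts in the input or in the mean saline library. The input has 1 library, so no test was run. Treatment groups were compared in R 4.3.3 with edgeR 4.0.16 (robust quasi-likelihood fit, TMM, minimum count 10 and minimum total 15), which kept 14989 of 22641 genes in 1 fit of 9 libraries with 6 residual degrees of freedom. A gene was called at a Benjamini-Hochberg adjusted p under 0.05 over all genes kept. Rpl10l, Rpl39l and Rpl3l failed the filter, and Rpl10l, Rpl39l, Rpl3l and Rpl26 lacked the counts for the ratio. For yoked against saline, same-numbered libraries pair by the rule that each pair's deviations from group means correlate above 0.1 over all genes kept (r 0.163, 0.170 and 0.126). For the other comparisons they do not. The main fit ignored this pairing, and a fit with a replicate block was an alternative. DESeq2 1.42.0 and limma 3.58.1 (voom) were alternatives. Reads carry no molecular identifiers. The Poisson interval of Rpl10a in the input covers counting error only. Intervals of fold changes come from the edgeR fit and include the spread between libraries.

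The members and gene lists were chosen with earlier results of these data known. Named genes are Rpl10a, the stalk genes and Rpsa, paralog pairs, the 3 smallest p in each direction of a comparison when fewer than 3 were called, the 6 highest and lowest ratios where 100 counts or more lay on the larger side, the 5 highest and lowest levels, and of other lists the 2 smallest p. The highest levels of uniquely placed reads, not corrected for length, included Rpl4, Rps3, Rpl15 and Rps15, and the 5 lowest were Rpl39l, Rpl10l, Rpl3l, Rpl26 and Rpl24. Some genes that these rules would name are not reported here.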

Additional observations from a re-analysis of the deposited data

Results flagged for a closer look

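Reads fell on genes outside the 84. The pseudogene Rpl14-ps1 had a mean of 4.69 CPM over the 9 immunopurified libraries (SD 0.834), each of them above its 2.62 CPM in the input. The share of reads with no unique alignment, which reach no gene, had a median of 50.8% over the immunopurified libraries, each above the 35.4% of the input. The part of either in the levels of ribosomal protein genes was not tested.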

How the results depend on the processing

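Without a filter on low counts edgeR called 60 of 22641 genes in cocaine against saline. Of 83 ribosomal protein genes 1 was called, Rpl27a (log2 fold change 0.83, adjusted p = 0.0342, edgeR). That gene peaked in cocaine library 2 at 126 CPM. With the filter, its log2 fold change was 0.09 without this library. The unfiltered fit also called 27 genes in cocaine against yoked and 18 in yoked against saline, with no ribosomal protein gene among them. No gene was called under DESeq2, voom, DESeq2 size factors, the fit without library 2 of every group or any fit without 1 library. Deviations of libraries with the same number correlated at 0.07 to 0.17 in all 9 pairs, over 0.1 in 6 of them, and each library correlated best with its own number in both other groups (18 of 18), a hint from the data and not the design. With a replicate block, which changed no call, 0 genes were called, and the medians over ribosomal protein genes were 0.09, −0.02 and 0.11 for cocaine over saline, cocaine over yoked and yoked over saline. Without 1 library at a time these medians ran from −0.05 to 0.19, from −0.10 to 0.04 and from −0.04 to 0.24. In cocaine over yoked, Rpl10a ran from −0.063 to 0.483, below 0 in 3 fits (−0.063 without cocaine library 1, −0.020 without yoked library 1 and −0.023 without yoked library 2). Rpl27a turned to −0.042 without library 2 of every group. For the ratio to input, the median ran from 0.98 to 1.32 without 1 saline library and the number at least 2-fold higher from 23 to 56. That number was 40 with cocaine and 42 with yoked libraries, 27 with TMM, 16 without the 10 most counted genes in the total and 19 of 63 at a minimum of 100 counts, while 0 were at least 2-fold lower throughout. The cause of these shifts was not tested. The ratios of Rps27 (28 input counts) and Rpl27 (15) rest on few input reads.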
